A study of Mus musculus with 6 samples.

Results

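The Slc25 genes encode the mitochondrial carrier family, and their transcripts were followed in stimulated macrophages from mice labelled Tet2-deficient and from wild-type mice. The Tet2 feature itself was not lower on the arrays labelled Tet2-deficient, so the group names and all directions rest on the labels. Members were the array features whose mapped mouse gene symbol starts with Slc25a, which gave 45 of 25206 features, 1 feature per gene. Their genes lie on 19 chromosomes. The macrophages came from the peritoneal cavity of Tet2-/- mice and of wild-type littermates, 3 mice per genotype, all on the C57BL/6J background. Thioglycollate injected 4 days earlier had drawn phagocytes into the cavity. In culture, both genotypes then received 10 ng/mL lipopolysaccharide, a component of bacterial walls, together with 2 ng/mL interferon gamma over 10 h. No unstimulated culture was compared, so every value describes the stimulated state, and the deleted part of Tet2 is not given in the sources used here. Tet2 oxidises methylated cytosine in DNA.

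Carriers of this family sit mainly in the inner mitochondrial membrane, which small charged molecules do not cross unaided. Each passes nucleotides, phosphate, organic acids, amino acids, cofactors or metal ions between matrix and cytosol, often by exchanging one molecule for another. Macrophages activated by lipopolysaccharide are known to send citrate out of the mitochondrion for lipid synthesis and to make itaconate from the citrate cycle.

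Of the 45 carrier genes, Slc25a37 was the 1 that changed. This gene encodes mitoferrin-1, which brings iron into the mitochondrial matrix and is best known for supplying heme synthesis in developing red cells. Its level was 1.69 times as high in Tet2-deficient as in wild-type macrophages. The other 44 genes did not pass the threshold, and 0 carrier genes fell. A feature was called changed at an adjusted p below 0.05 in a limma fit over all features, and 0.952% of all features were called (0.647% higher and 0.305% lower in Tet2-deficient macrophages). Before adjustment, 3 carrier genes were higher and 4 lower at p below 0.05, 7 of 45 against 16.0% of all features.

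**Figure D1:**
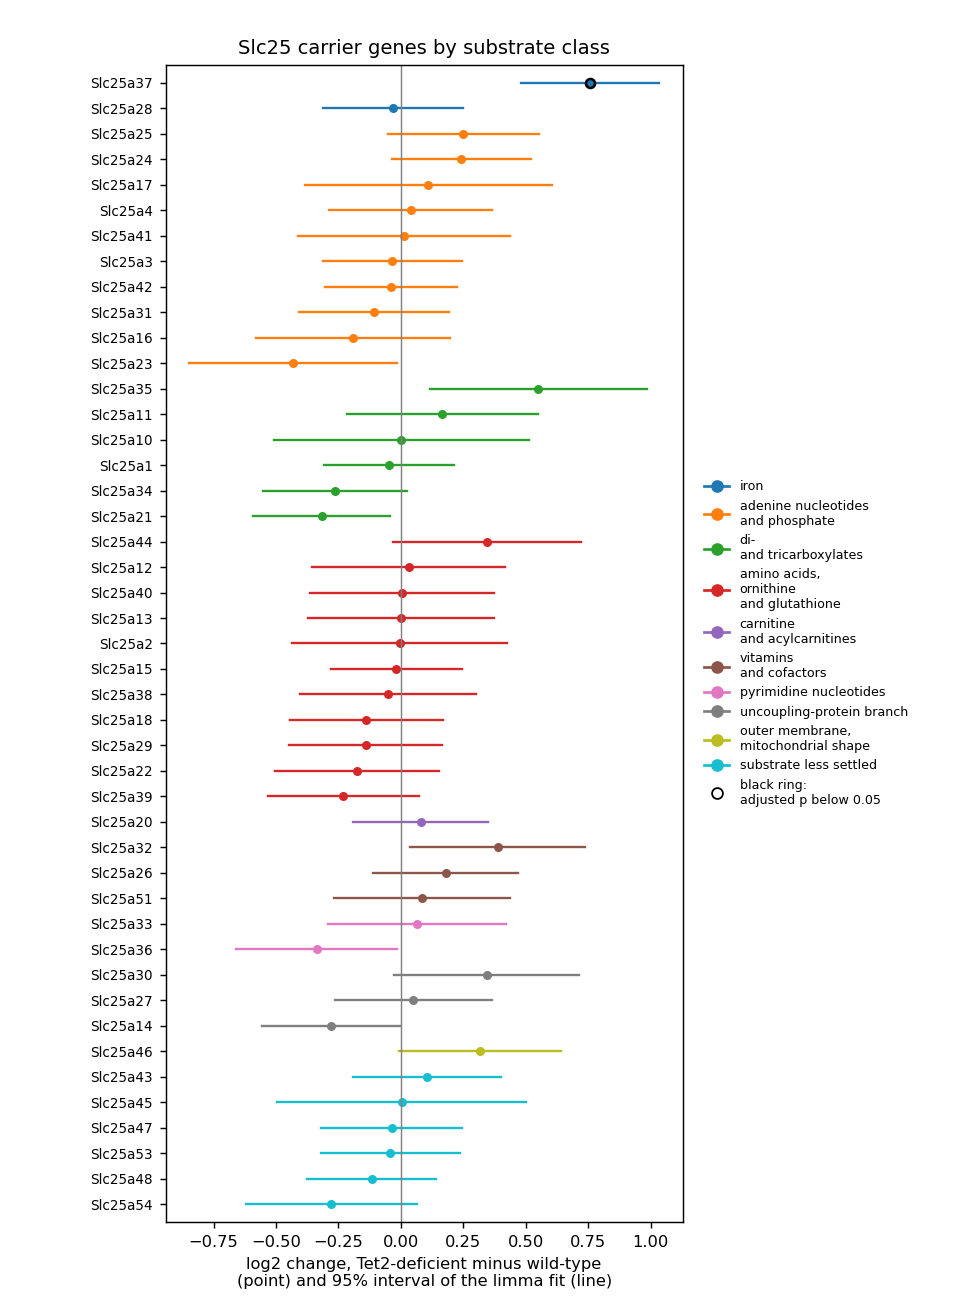
Log2 change, Tet2-deficient minus wild-type, of the 45 Slc25 genes (points) with the 95% interval of the limma fit (lines), coloured by substrate class. Slc25a37, ringed, lies at 0.76 with an interval of 0.48 to 1.03, and most of the other intervals include 0.

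Changes in the family ran both ways. Across the 45 genes 23 changes were positive and 22 negative, with a median log2 change of 0.00038, where 57.9% of all features were negative with a median of -0.040. Carriers were brighter than most features: among the 33 above the median level 42.4% of changes were negative with a median of 0.0029, beside 50.9% and -0.0054 for all features above it. The median absolute log2 change was 0.109 for the carriers and 0.147 for all features. The 95% interval of the change lay within 1.5-fold of no change for 34 of the 45 carriers and within 2-fold for 44, the exception being Slc25a37. A change of at least 1.5-fold was measured for 1 carrier, and for 3.64% of all features. These intervals are per gene and not adjusted for the number of genes. Whether a difference reflects RNA per cell or the share of cells of some type cannot be told apart in cultures measured as a whole.

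**Figure D2:**
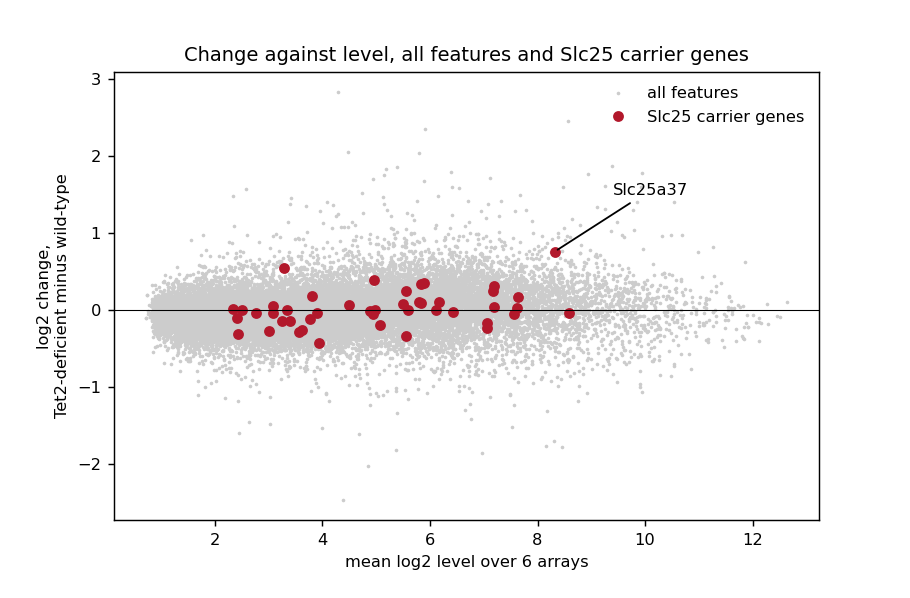
Log2 change, Tet2-deficient minus wild-type, against the mean log2 level over 6 arrays, for all 25206 features (grey) and the 45 Slc25 genes (red). All carriers lie between -0.43 and 0.76, with Slc25a37 at the upper end.

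Values are log2 levels as deposited, and each change, taken as Tet2-deficient minus wild-type, carries the limma standard error (3 arrays per group). Median log2 levels were 3.47 to 3.60 on the Tet2-deficient arrays and 3.54 to 3.66 on the wild-type arrays. Over all features, correlations were 0.989 to 0.991 among Tet2-deficient arrays, 0.988 to 0.990 among wild-type arrays and 0.983 to 0.987 across genotypes. The Tet2 feature itself was at 5.55, 5.25 and 5.75 in the Tet2-deficient group, against 5.40, 5.07 and 5.10 in the wild-type group (change 0.32, adjusted p = 0.365). The defining macrophage markers Adgre1 and Cd68 were high everywhere, between 10.04 and 10.73. Of the carriers, 33 had a mean level above the median of all features (3.55) and 12 did not, and in the dim ones a change can be understated.

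Iron enters the matrix through the paralogous mitoferrins. Slc25a37 was at 8.77, 8.66 and 8.65 on the Tet2-deficient arrays, against 8.09, 7.91 and 7.81 on the wild-type arrays. All Tet2-deficient arrays lay above all wild-type arrays, and the gap between the groups exceeded the whole range within each. Its change was 0.76 ± 0.12 (limma adjusted p = 0.0290), and 1.56% of all features changed by as much or more. The other mitoferrin, Slc25a28, which is broadly expressed and serves iron import outside red cells, was at 6.47, 6.29 and 6.49 on the Tet2-deficient arrays, against 6.36, 6.40 and 6.59 on the wild-type arrays. Its groups overlapped, with a change of -0.032 ± 0.12, adjusted p = 0.932 and a 95% interval of -0.31 to 0.25. The changes of the paralogs differed by 0.79 on the log2 scale. An exact two-sided permutation test over the 6 arrays gave p = 0.1, the smallest this design allows. Because the Slc25a37 groups were already known to be apart on these arrays, that test cannot decide whether the paralogs differ.

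The call for Slc25a37 was lost in 5 of the 6 fits with an array left out. Leaving out 1 array in turn kept the change at 0.69 to 0.83, but the adjusted p ran from 0.0399 to 0.132 and stayed below 0.05 only without wild-type replicate 1. Without Tet2-deficient replicate 1, 2 or 3 it was 0.111, 0.0647 and 0.114, and without wild-type replicate 2 or 3 it was 0.0840 and 0.132. In the same fits the features called in all numbered 11 to 155, against 240 with all arrays.

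Markers of other cells stood as follows beside Slc25a37. Of 6 markers of red-cell precursors, where mitoferrin-1 is abundant, 3 were measured, 0 of them above the median level, and their mean level was 2.22 to 2.31 on the Tet2-deficient and 2.24 to 2.53 on the wild-type arrays. They included Alas2, the erythroid enzyme that starts heme synthesis, at 2.23, 2.45 and 2.30 on the Tet2-deficient arrays, against 2.47, 2.51 and 2.57 on the wild-type arrays. Its Tet2-deficient values were the lower ones. Neutrophil markers were above the median level for 1 of 8, the calcium-binding protein S100a8, at 7.67, 8.87 and 8.26 on the Tet2-deficient arrays, against 7.87, 7.96 and 7.38 on the wild-type arrays. Its groups overlapped, and 0 of the 8 passed the threshold. Markers of resident peritoneal macrophages differed in part. Of the 7, 3 passed as higher (Timd4, Prg4 and F5) and 0 as lower, beside 0.647% and 0.305% of all features. Icam2 had groups apart but did not pass (0.99 ± 0.19, limma adjusted p = 0.0523). Groups overlapped for Gata6, Selp and Garnl3, with changes of 0.23, 0.073 and 0.13. The mean level of the 7 markers was 5.96 to 6.56 on the Tet2-deficient and 5.19 to 5.54 on the wild-type arrays. Of 7 general macrophage markers, 2 rose (Cd14 and Itgam) and 0 fell at the threshold, but the list ran both ways. At an unadjusted p below 0.05 in the limma fit, met by 16.0% of all features, 3 were higher and 1 lower. The lower one was Fcgr1 (-0.51 ± 0.19, adjusted p = 0.230). The part of either list in the Slc25a37 result was not tested. In the limma fit 0 of 4 monocyte, 4 B cell, 6 T and NK cell, 6 eosinophil and mast cell, and 7 mesothelium and fibroblast markers passed, and 1 of them, the monocyte marker Ly6c2, had an unadjusted p below 0.05 (1.01 ± 0.20, adjusted p = 0.0558).

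Among 10 measured genes of mitochondrial iron, heme and iron-sulfur clusters, 0 rose and 0 fell, also at an unadjusted p below 0.05 in the limma fit. Their median log2 change was 0.041. The smallest p belonged to Alas2 and to Nfs1, the sulfur donor of cluster assembly (0.11 ± 0.12, adjusted p = 0.697). The gene for the housekeeping first enzyme of heme synthesis, Alas1, was at 10.62, 10.59 and 10.65 on the Tet2-deficient arrays, against 10.51, 10.54 and 10.50 on the wild-type arrays. Its Tet2-deficient values were the higher ones by a narrow margin (0.10 ± 0.11, adjusted p = 0.705).

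**Figure D3:**
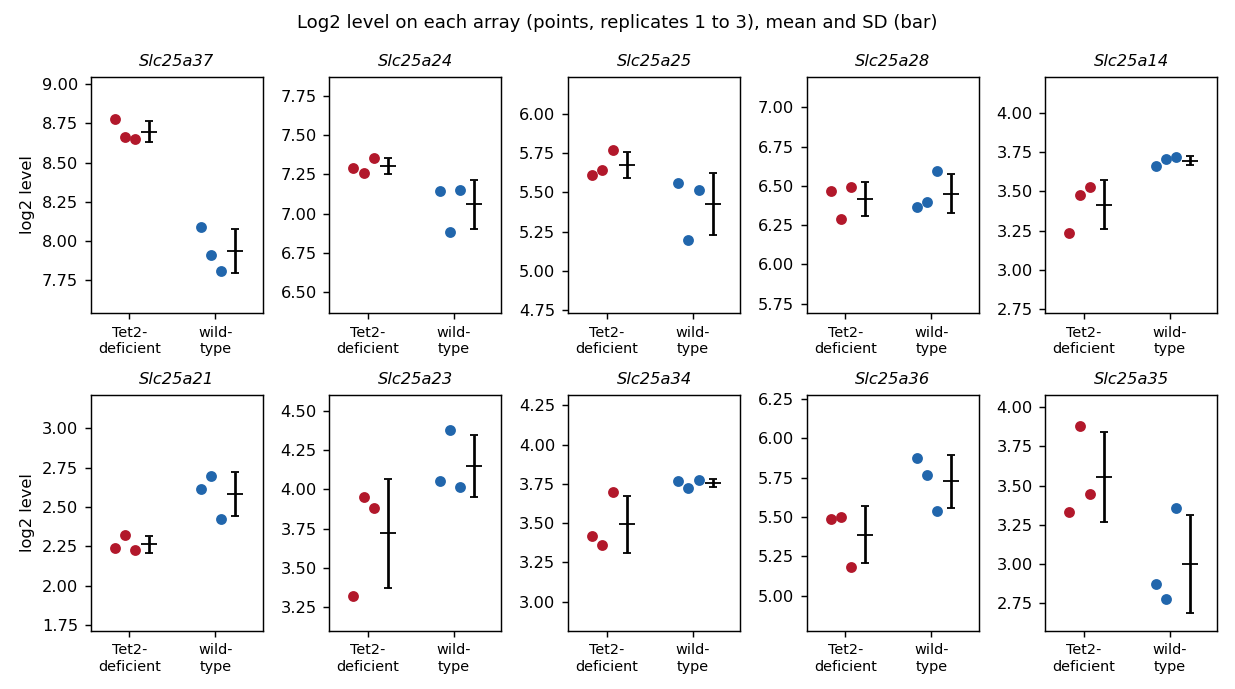
Log2 level on each array, Tet2-deficient (red, left) and wild-type (blue, right), for Slc25a37, its paralog Slc25a28, and carriers whose groups did not overlap and Slc25a35. Each panel spans 1.5 log2 units, and bars give mean and SD of 3 arrays. Slc25a37 has the widest gap between the groups.

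Groups did not overlap for 8 of the 45 carriers (22.0% of all features), 3 of them higher in Tet2-deficient macrophages (9.74% of all features) and 5 lower (12.2%). The higher ones were Slc25a37, Slc25a24 and Slc25a25, and the lower ones Slc25a14, Slc25a21, Slc25a23, Slc25a34 and Slc25a36. The carriers' share, 17.8%, is thus near the background. Above the median level it was 21.2% of carriers and 31.1% of all features.

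Of the carriers, 10 move adenine nucleotides, phosphate or related cofactors, and 0 of the 10 passed. Slc25a23, Slc25a24 and Slc25a25, which exchange ATP-magnesium for phosphate and are regulated by calcium, did not share a direction. Slc25a24 was at 7.29, 7.26 and 7.36 on the Tet2-deficient arrays, against 7.14, 6.88 and 7.15 on the wild-type arrays. Slc25a25 was at 5.61, 5.64 and 5.77 on the Tet2-deficient arrays, against 5.56, 5.20 and 5.52 on the wild-type arrays. In both, every Tet2-deficient array was above every wild-type array, by a narrow margin, with changes of 0.24 (adjusted p = 0.386) and 0.25 (adjusted p = 0.413). Slc25a23 was at 3.32, 3.95 and 3.88 on the Tet2-deficient arrays, against 4.05, 4.38 and 4.02 on the wild-type arrays. Here the order was the opposite, with 1 Tet2-deficient array well below the others (change -0.43 ± 0.19, adjusted p = 0.298).

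Other carriers of this class feed ATP synthesis. Slc25a3, which imports the phosphate that ATP synthase uses, was at 8.59, 8.66 and 8.45 on the Tet2-deficient arrays, against 8.46, 8.66 and 8.69 on the wild-type arrays. Slc25a4, the heart and muscle form of the ADP/ATP exchanger, was at 7.49, 7.18 and 6.98 on the Tet2-deficient arrays, against 7.20, 7.14 and 7.19 on the wild-type arrays. Both overlapped, with 95% intervals of -0.31 to 0.24 and -0.29 to 0.37 for the change. Slc25a16, a carrier linked to coenzyme A, was at 5.19, 4.65 and 5.12 on the Tet2-deficient arrays, against 5.32, 5.27 and 4.94 on the wild-type arrays, with overlapping groups. The testis form of the ADP/ATP exchanger, Slc25a31, the calcium-independent Slc25a41, the coenzyme A carrier Slc25a42 and the peroxisomal carrier Slc25a17 had changes of -0.11, 0.012, -0.041 and 0.11. Slc25a5, another ADP/ATP exchanger gene, was not among the members analysed, so these values do not cover every form.

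Among the carriers, 6 are grouped as carriers of di- and tricarboxylates, and 0 passed. Slc25a1 exports citrate, the source of acetyl groups for fatty acids. It was at 7.56, 7.48 and 7.58 on the Tet2-deficient arrays, against 7.49, 7.69 and 7.59 on the wild-type arrays. Its values were tight and overlapping, with an interval of -0.31 to 0.21 for the change. Slc25a10, which exchanges malate or succinate for phosphate, was at 6.69, 5.79 and 5.83 on the Tet2-deficient arrays, against 5.96, 6.18 and 6.17 on the wild-type arrays. Slc25a11, which exchanges oxoglutarate for malate, was at 8.07, 7.52 and 7.57 on the Tet2-deficient arrays, against 7.56, 7.72 and 7.38 on the wild-type arrays. In both, Tet2-deficient replicate 1 was the highest of the 6 arrays. The other Tet2-deficient arrays lay below every wild-type array for Slc25a10 and among them for Slc25a11.

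The remaining members of that class had larger but unsettled changes. Slc25a21, a carrier of oxoadipate and related acids, was at 2.24, 2.32 and 2.23 on the Tet2-deficient arrays, against 2.62, 2.70 and 2.43 on the wild-type arrays. It was lower on every Tet2-deficient array (-0.32 ± 0.12, adjusted p = 0.240), at levels below the median of all features. Slc25a34 and Slc25a35 are paralogs whose substrates are less settled. Slc25a34 was at 3.42, 3.36 and 3.70 on the Tet2-deficient arrays, against 3.77, 3.72 and 3.77 on the wild-type arrays. Slc25a35 was at 3.33, 3.88 and 3.45 on the Tet2-deficient arrays, against 2.87, 2.78 and 3.36 on the wild-type arrays. They differed in sign: Slc25a34 had a change of -0.26 ± 0.13, adjusted p = 0.355, and Slc25a35, with overlapping groups, 0.55 ± 0.19, adjusted p = 0.204.

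Amino acids, ornithine or glutathione are handled by 11 carriers, and 0 of them passed, also at an unadjusted p below 0.05 in the limma fit. Slc25a12 and Slc25a13 exchange aspartate for glutamate in the malate-aspartate shuttle. Slc25a12 was at 7.93, 7.31 and 7.66 on the Tet2-deficient arrays, against 7.46, 7.56 and 7.79 on the wild-type arrays. Slc25a13 was at 5.27, 4.88 and 4.79 on the Tet2-deficient arrays, against 5.08, 4.73 and 5.12 on the wild-type arrays. Groups overlapped in both, with changes of 0.031 and 0.00038. Slc25a44, a carrier of branched-chain amino acids, was at 6.33, 5.75 and 6.08 on the Tet2-deficient arrays, against 5.59, 5.62 and 5.91 on the wild-type arrays. Its mean was higher in Tet2-deficient macrophages, but 1 of their arrays lay below a wild-type array (0.35 ± 0.17, adjusted p = 0.356).

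Slc25a39, which brings glutathione into the matrix, was at 7.02, 7.01 and 6.81 on the Tet2-deficient arrays, against 6.97, 7.27 and 7.29 on the wild-type arrays. Its relative Slc25a40 had a change of 0.0045, and the change of Slc25a39 was -0.23 ± 0.13, adjusted p = 0.456. Slc25a22, a glutamate carrier, was at 7.03, 6.71 and 7.20 on the Tet2-deficient arrays, against 7.15, 7.08 and 7.24 on the wild-type arrays. Slc25a29, a carrier of basic amino acids, was at 3.15, 3.47 and 3.35 on the Tet2-deficient arrays, against 3.29, 3.56 and 3.54 on the wild-type arrays. Groups overlapped in all 3. The ornithine carriers Slc25a15 and Slc25a2, the glutamate carrier Slc25a18 and Slc25a38, which supplies glycine for heme synthesis, had changes of -0.019, -0.0049, -0.14 and -0.052.

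The carnitine carrier Slc25a20 takes acylcarnitines in for fatty acid oxidation. It was at 5.67, 5.42 and 5.53 on the Tet2-deficient arrays, against 5.39, 5.53 and 5.46 on the wild-type arrays. The groups overlapped, and the interval of the change was -0.19 to 0.35.

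Of 3 cofactor carriers 0 passed, and all 3 changes were positive. Slc25a32, which carries folate or flavin adenine dinucleotide, was at 5.25, 4.87 and 5.33 on the Tet2-deficient arrays, against 4.96, 4.70 and 4.63 on the wild-type arrays. Its change was 0.39 ± 0.16, adjusted p = 0.264, with 1 Tet2-deficient array below the highest wild-type array. Slc25a26, which imports the methyl donor S-adenosylmethionine, was at 3.72, 3.92 and 4.02 on the Tet2-deficient arrays, against 3.81, 3.61 and 3.71 on the wild-type arrays, and its groups overlapped. The NAD carrier Slc25a51 had a change of 0.084. The pyrimidine nucleotide carriers differed in sign. Slc25a36 was at 5.49, 5.50 and 5.18 on the Tet2-deficient arrays, against 5.87, 5.76 and 5.54 on the wild-type arrays. It was lower on every Tet2-deficient array (-0.34 ± 0.14, adjusted p = 0.290), while Slc25a33 had a change of 0.065.

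The branch around the uncoupling proteins had 3 members, and 0 passed. Slc25a14 was at 3.24, 3.48 and 3.53 on the Tet2-deficient arrays, against 3.66, 3.71 and 3.72 on the wild-type arrays. All Tet2-deficient arrays were below the tightly grouped wild-type arrays (-0.28 ± 0.12, adjusted p = 0.306). Slc25a30 was at 5.89, 6.35 and 5.79 on the Tet2-deficient arrays, against 5.82, 5.61 and 5.58 on the wild-type arrays. Its Tet2-deficient values overlapped the wild-type range at the low end (0.34 ± 0.16, adjusted p = 0.349), and Slc25a27 had a change of 0.050.

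Slc25a46 sits in the outer membrane and takes part in mitochondrial fusion and fission. It was at 7.52, 7.18 and 7.33 on the Tet2-deficient arrays, against 7.07, 6.82 and 7.19 on the wild-type arrays. The mean was higher in Tet2-deficient macrophages and the ranges overlapped slightly (0.32 ± 0.14, adjusted p = 0.323). Of 6 members with less settled substrates 0 passed. Slc25a54 was at 2.86, 2.63 and 3.13 on the Tet2-deficient arrays, against 3.20, 3.25 and 3.00 on the wild-type arrays, with overlapping groups (-0.28 ± 0.15, adjusted p = 0.420). Slc25a43, Slc25a45, Slc25a47, Slc25a48 and Slc25a53 had changes of 0.10, 0.0029, -0.037, -0.12 and -0.042. The 17 carriers not described array by array had log2 changes of -0.14 to 0.11, and none had groups apart.

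**Figure D4:**
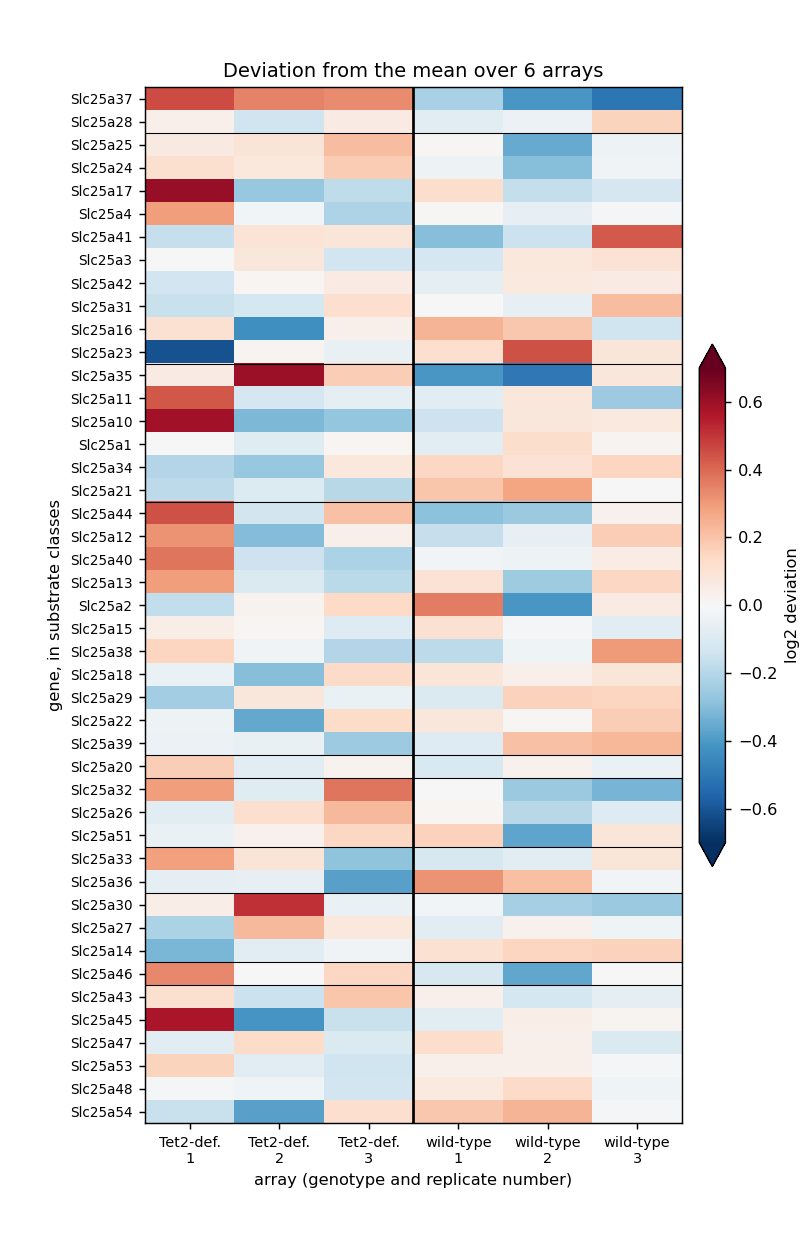
Deviation of each Slc25 gene from its mean over the 6 arrays (colour, log2), Tet2-deficient arrays left and wild-type arrays right of the line, with genes in substrate classes. Slc25a37 separates the groups, and Tet2-deficient replicate 1 holds the highest value of 14 of the 45 genes.

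Variation among the carriers was partly array by array. Tet2-deficient replicate 1 held the highest value of 14 of the 45 genes, or 31.1%, against 17.4% of all features. Slc25a10, Slc25a17 and Slc25a45 were among them. Tet2-deficient replicate 2 held the lowest value of 12 genes, or 26.7%, against 15.7% of all features. The SD within the group was larger in Tet2-deficient than in wild-type macrophages for 29 of 45 carriers (median 0.177 and 0.133), and for 51.2% of all features. On Tet2-deficient replicate 1 the mean level of B cell markers was 0.47 and that of monocyte markers 0.58 above the mean over arrays, the highest of the 6 in each. Cd79a, Cd79b, Ly6c2, Ccr2 and Plac8 were highest on that array. Ms4a1 was highest on wild-type replicate 1, and Pax5 and Chil3 on wild-type replicate 3. On Tet2-deficient replicate 2 the mean level of mesothelium and fibroblast markers was 0.67 above the mean over arrays, the highest of the 6. The collagen gene Col1a1 was at 5.58, 7.37 and 5.26 on the Tet2-deficient arrays, against 5.40, 5.96 and 5.09 on the wild-type arrays. Col1a2, Pdgfra, Upk3b and Krt18 were also highest on Tet2-deficient replicate 2. Msln was not, and Krt19 was at its lowest of the 6 arrays there. The part of these markers in the carriers' deviations was not tested. Without Tet2-deficient replicate 1 the median change of the carriers was -0.058.

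Promoters were compared because Tet2 acts on methylated cytosine, which in mammals lies mostly in CG dinucleotides. No methylation was measured. RefSeq promoters of the GRCm38.p6 build, from 250 bases before to 50 after a transcript start, were found for 35 of the 45 genes, 45 starts in all. Slc25a2, Slc25a26, Slc25a27, Slc25a32, Slc25a35, Slc25a37, Slc25a41, Slc25a44, Slc25a46 and Slc25a51 were not matched. The carrier promoters held a median of 15 CG dinucleotides (range 1 to 51), against 7 over all 32851 promoters. A GC content above 50% with a CG ratio, observed over expected, above 0.6 was met by 20 of the 45 starts (44.4%) and by 33.3% of all promoters. It was met by 40.0% of the 35 starts of carriers above the median level and 60.0% of the 10 others. All promoters were not split by level. Of the carriers whose groups did not overlap, 3 had a single listed start. Their promoters are shown 5′ to 3′ on the gene's strand with each CG in capitals, since they span the range from CG-poor to CG-rich. Slc25a24 lies at chr3:109122899-109123198, plus strand, Slc25a34 at chr4:141623785-141624084, minus strand and Slc25a36 at chr9:97110992-97111291, minus strand.
Slc25a24: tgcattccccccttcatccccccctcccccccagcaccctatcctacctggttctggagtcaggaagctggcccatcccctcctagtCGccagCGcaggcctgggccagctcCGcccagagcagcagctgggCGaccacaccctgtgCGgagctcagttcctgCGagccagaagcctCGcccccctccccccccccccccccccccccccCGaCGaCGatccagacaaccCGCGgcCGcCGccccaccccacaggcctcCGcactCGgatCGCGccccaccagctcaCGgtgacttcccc
Slc25a34: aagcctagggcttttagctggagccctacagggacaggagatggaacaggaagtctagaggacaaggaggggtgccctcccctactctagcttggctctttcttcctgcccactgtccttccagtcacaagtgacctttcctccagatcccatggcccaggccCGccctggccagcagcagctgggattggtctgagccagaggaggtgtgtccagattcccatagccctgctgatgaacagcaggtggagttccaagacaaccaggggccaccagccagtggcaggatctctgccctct
Slc25a36: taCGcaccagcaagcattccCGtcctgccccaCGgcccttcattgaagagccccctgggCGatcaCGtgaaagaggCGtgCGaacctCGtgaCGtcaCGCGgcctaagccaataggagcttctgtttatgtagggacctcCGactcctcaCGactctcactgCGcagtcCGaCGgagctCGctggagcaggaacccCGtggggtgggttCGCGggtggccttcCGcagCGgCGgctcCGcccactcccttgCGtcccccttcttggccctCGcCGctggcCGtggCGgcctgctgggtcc
They hold 19, 1 and 29 CG dinucleotides. Slc25a24 was higher, and the CG-poor Slc25a34 and the CG-rich Slc25a36 were lower, on every Tet2-deficient array, all short of the threshold. Whether CG content goes with the changes was not tested.

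Relatives and partners of the carriers were read from lists of genes, and a list is given by its counts in the limma fit. Beside every such count, 16.0% of all features had an unadjusted p below 0.05, and 24.0% of features above the median level. Of 4 family members under other symbols, Ucp1, Ucp3, Mtch1 and Mtch2, 0 passed, and 0 had an unadjusted p below 0.05. The uncoupling protein gene Ucp2 was listed but not measured, and Ucp1 and Ucp3 lay below the median level. The outer membrane proteins Mtch1 and Mtch2 had changes of -0.22 ± 0.11, adjusted p = 0.380 and 0.26 ± 0.14, adjusted p = 0.393. Of 3 outer membrane porins 0 passed, and 0 had an unadjusted p below 0.05 (Vdac1 -0.23 ± 0.12, adjusted p = 0.416, Vdac3 0.21 ± 0.13, adjusted p = 0.486).

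The carrier import machinery, made up of Timm and Tomm genes, had 10 of 11 negative changes and a median of -0.20. Over all features 57.9% were negative, with a median of -0.040. Among features above the median level, 50.9% were negative. None of the 11 passed, and 4 had an unadjusted p below 0.05. Timm10, a chaperone of the intermembrane space, was at 5.83, 5.87 and 5.73 on the Tet2-deficient arrays, against 6.14, 6.37 and 6.22 on the wild-type arrays. Timm13, of the same chaperone family, was at 5.92, 6.15 and 5.87 on the Tet2-deficient arrays, against 6.27, 6.38 and 6.40 on the wild-type arrays. In both, every Tet2-deficient array was below every wild-type array, with adjusted p = 0.118 and 0.188.

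Among enzymes next to the carriers, arginase 2, a mitochondrial enzyme that makes ornithine, was the 1 of 8 ornithine, proline and glutamate genes that rose. Arg2 was at 6.35, 6.26 and 6.25 on the Tet2-deficient arrays, against 4.83, 5.57 and 4.94 on the wild-type arrays. The gap between groups was wide (1.17 ± 0.19, adjusted p = 0.0266), though the call held in the leave-one-out fits only without wild-type replicate 2 (adjusted p = 0.0127 to 0.120). Oat, which converts ornithine, had 0.38 ± 0.13, adjusted p = 0.210. The 95% interval of the change was -0.28 to 0.24 for the ornithine carrier Slc25a15 and -0.43 to 0.42 for Slc25a2, which lay below the median level.

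Of 7 genes of citrate and itaconate use 0 passed and 3 had an unadjusted p below 0.05, all positive. Of features above the median level, where 6 of the 7 lay, 24.0% had such a p. Acaca, which makes malonyl-CoA for fatty acids, was at 5.44, 5.50 and 5.38 on the Tet2-deficient arrays, against 5.04, 4.45 and 4.72 on the wild-type arrays. Its groups were apart (0.71 ± 0.16, adjusted p = 0.0705). Aco1, the cytosolic aconitase, had 0.46 ± 0.13, adjusted p = 0.121. Itaconate synthase, Acod1, was at 11.90, 11.77 and 11.85 on the Tet2-deficient arrays, against 11.81, 11.76 and 11.82 on the wild-type arrays, with overlapping groups.

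Of 5 carnitine shuttle genes 0 passed and 2 had an unadjusted p below 0.05, Crat (0.41 ± 0.12, adjusted p = 0.149) and Cpt1a (0.39 ± 0.13, adjusted p = 0.179), which make acylcarnitines. Of 6 genes of the malate-aspartate and glycerol phosphate shuttles 0 passed and 3 had an unadjusted p below 0.05, Mdh2 (0.33 ± 0.11, adjusted p = 0.198), Gpd2 (0.30 ± 0.12, adjusted p = 0.247) and, with the opposite sign, Gpd1 (-0.31 ± 0.14, adjusted p = 0.302). Groups did not overlap for 4 of the 6, beside 22.0% of all features and 31.1% of features above the median level. Mdh2 and Gpd2 were higher and Gpd1 and Mdh1 (-0.29 ± 0.13, adjusted p = 0.334) lower in Tet2-deficient macrophages. Of 8 one-carbon genes 0 passed and 1 had an unadjusted p below 0.05, Aldh1l2 (0.41 ± 0.15, adjusted p = 0.221). Of 12 genes of mitochondrial nucleotides and NAD 0 passed and 1 had an unadjusted p below 0.05, the nucleotide kinase Cmpk2 (-0.55 ± 0.21, adjusted p = 0.238).

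The calcium uniporter list had 0 of 5 past the threshold and 1 with an unadjusted p below 0.05, the uniporter subunit gene Smdt1 (-0.35 ± 0.13, adjusted p = 0.217). The thiamine and coenzyme A list had 0 of 8 on either count, with the smallest p for Pank3 and Pdhb. The branched-chain amino acid list had 0 of 5 past the threshold and 1 with an unadjusted p below 0.05, Bckdha (-0.30 ± 0.12, adjusted p = 0.264). The mitochondrial fusion and fission list had 0 of 6 past the threshold, and the fission genes Dnm1l (0.38 ± 0.14, adjusted p = 0.232) and Fis1 (-0.35 ± 0.13, adjusted p = 0.229) differed in sign. The biogenesis list had 0 of 8 past the threshold and 1 with an unadjusted p below 0.05, Nrf1 (0.37 ± 0.15, adjusted p = 0.275), a transcription factor of nuclear genes for mitochondrial proteins.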

How the data were processed

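Gene expression of 6 macrophage cultures, 3 Tet2-deficient and 3 wild-type, was measured on Affymetrix arrays. The authors deposited log2 values made with RMA using affy 1.36.1, per the submitters' processing notes. The sources used here give no array type, feature definition or filter. Because RMA equalises arrays, a shift common to all genes would be hidden. Labels call the samples biological replicates. Features were named through the platform annotation (23185 of 25206 with 1 symbol, 2021 unnamed), and Slc25a5 was not analysed here. Genotypes were compared in R 4.3.3 with limma 3.58.1 (lmFit, then eBayes). Two-sided p-values were adjusted by Benjamini-Hochberg across every feature, and the fit was tested on simulated data.

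Members and lists were chosen with earlier results of these data known. Of 179 listed genes, 158 were measured. Values per array were given for the 10 most positive and 10 most negative changes, members past the threshold, and 10 members fixed by name (28 in all), as well as for Slc25a37's marker genes and leading list members, chosen after their values were seen. Alternatives were array centring, cyclic loess, dim features left out, a replicate block, a trended and robust prior, array weights, each array left out, a threshold of 0.1, and, added after seeing the data, removal of a gene-span and level trend. Each group had 3 arrays, which limits the precision.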

Additional observations from a re-analysis of the deposited data

How the results depend on the processing

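Slc25a37 kept its direction under all 13 alternatives (log2 change 0.63 to 0.83) and its call under 8. The number of carriers called, all higher, was 1 in each of those and at a threshold of 0.1, and 0 to 1 with an array left out, and 0 were called lower throughout. All features called numbered 814 with a prior fitted robustly and with a trend, 846 with dim features left out, 498 with array weights, 791 at a threshold of 0.1 and 11 to 155 with an array left out. The carriers' median log2 change was 0.066 with arrays centred, which moved the median of all features to 0.026, and -0.058 to 0.036 with an array left out. With the replicate block 230 features were called, and Slc25a37 had an adjusted p = 0.0418. Same-numbered arrays' deviations correlated at 0.084, 0.19 and 0.025. Differently numbered arrays were not compared in this way, so these values cannot decide whether the numbers mark pairs. The labels name no pairs, and the main fit took none. Arg2 lost its call in 5 of the 6 fits with an array left out. The changes of 24 carriers kept their sign throughout. The sign of the other 21, none of them called, turned in places, and the cause was not tested. With arrays centred, changes were 0.019 (Slc25a1), 0.061 (Slc25a2), 0.031 (Slc25a3), 0.047 (Slc25a15), 0.034 (Slc25a28), 0.014 (Slc25a38), 0.025 (Slc25a42), 0.029 (Slc25a47) and 0.024 (Slc25a53). With cyclic loess they were 0.060 (Slc25a2), -0.026 (Slc25a4), -0.052 (Slc25a10), -0.031 (Slc25a12), -0.0066 (Slc25a13), 0.027 (Slc25a42), -0.036 (Slc25a45), 0.018 (Slc25a47) and 0.024 (Slc25a53). With array weights they were 0.023 (Slc25a2), -0.030 (Slc25a4), -0.085 (Slc25a10), -0.076 (Slc25a13), -0.038 (Slc25a33), -0.067 (Slc25a40), -0.020 (Slc25a41) and -0.047 (Slc25a45). With the gene-span and level trend removed, over 23182 features, they were 0.045 (Slc25a1), 0.064 (Slc25a2), -0.16 (Slc25a12), -0.14 (Slc25a13), -0.011 (Slc25a17), 0.017 (Slc25a42), 0.026 (Slc25a47) and 0.012 (Slc25a53). With an array left out they ran from -0.096 to 0.0031 (Slc25a1), -0.21 to 0.17 (Slc25a2), -0.10 to 0.023 (Slc25a3), -0.098 to 0.16 (Slc25a4), -0.29 to 0.16 (Slc25a10), -0.010 to 0.27 (Slc25a11), -0.12 to 0.19 (Slc25a12), -0.14 to 0.096 (Slc25a13), -0.060 to 0.031 (Slc25a15), -0.17 to 0.27 (Slc25a17), -0.050 to 0.17 (Slc25a27), -0.076 to 0.039 (Slc25a28), -0.063 to 0.22 (Slc25a33), -0.16 to 0.083 (Slc25a38), -0.18 to 0.12 (Slc25a40), -0.13 to 0.23 (Slc25a41), -0.084 to 0.016 (Slc25a42), -0.28 to 0.21 (Slc25a45), -0.11 to 0.014 (Slc25a47), -0.080 to 0.19 (Slc25a51) and -0.13 to 0.017 (Slc25a53).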

Other observations

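The change of each carrier was also set against the length of its gene. Spearman's rho of the log2 change with genomic span was 0.088 over the 45 carrier genes and 0.19 over 23182 features with a span, as a description across genes that share the same 6 arrays. The 17 carrier genes no longer than the median of all features had a median change of -0.0049, and the 28 longer ones 0.0024. Over all features these medians were -0.069 and -0.0060.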
